A study of Mus musculus with 4 samples.

Results

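The comparison described here is the knockdown of selenoprotein T with the construct siSelT-1 against the empty vector in NIH 3T3 cells, an established line of mouse embryonic fibroblasts. Its members were the 2 arrays labelled as siSelT-1 against the pU6-m3 vector, out of 4 arrays in the series, and the 7404 of 22534 probes with a value on both of them. Each array was a 2-colour hybridisation of Cy5-labelled RNA of knockdown cells with Cy3-labelled RNA of vector cells, and the deposited value of a probe is the log ratio of these channels. In the knockdown group the pU6-m3 plasmid carried a short interfering sequence against nucleotides 205 to 224 of the mRNA of Selt, now named Selenot. The other construct of the series, siSelT-5, is directed at nucleotides 971 to 989 and was also hybridised against vector on 2 arrays. Knockdown and vector cells alike were stable transfectants held in 150 µg/ml hygromycin B, and their DMEM contained 10% FBS, an antibiotic-antimycotic solution and 100 nM sodium selenite. The labels give the 2 replicates of a construct as RNA from different cultures of knockdown cells collected at different times. They do not say whether a stable line was a clone or a pool, or whether the arrays shared vector RNA.

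Selenoprotein T is a small thioredoxin-fold protein of the endoplasmic reticulum (ER) membrane that carries selenocysteine, the amino acid inserted at a recoded UGA codon. It belongs to a family of redox proteins with selenoproteins W, H and V, and has been linked to ER redox balance, calcium handling, protein folding and glycosylation. In fibroblasts the ER is also where collagen, elastin and other matrix proteins are made for secretion. Selenot itself was named on 0 probes, and the depth of the knockdown was therefore not analysed here.

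Ratios were read as log2 of knockdown over vector. The dye labels and the order of names in the sample titles make this direction likely, but no source used here states it, and a reversed ratio would turn every direction below. The base of the logarithm is likewise not stated, and every fold rests on base 2. Knockdown RNA was always in Cy5, so a gene's own dye bias does not cancel against vector. Values were centred on the median of the 7404 probes, which was 0.18 on replicate 1 and 0.08 on replicate 2. On the siSelT-5 arrays the same probes had medians of 0.41 and 0.36, which were subtracted there. A positive value below therefore means higher than the median probe of that array, which is not the level of vector.

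Probes of a single gene name were averaged per gene, which gave 4968 named genes and, with unnamed probes, 5800 features. Over the named genes, which are not independent replicates, the 2 arrays had a Pearson correlation of 0.843 and a Spearman correlation of 0.821, and 82.3% of genes had the same sign on both. The median gap between the arrays was 0.12 log2. A limma fit called 2492 of 5800 features (43.0%) at a Benjamini-Hochberg adjusted p under 0.05, two-sided, with 1243 higher (21.4%) and 1249 lower (21.5%). Among named genes it called 2093 (42.1%), 1014 higher (20.4%) and 1079 lower (21.7%), and these shares are the background for each gene group below. Genes that passed had a mean of at least 0.236 in size, and 89 features (1.53%) also changed by at least 2-fold, 44 of them higher (0.759%) and 45 lower (0.776%). The named ones among these were 26 higher and 37 lower genes.

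The p-values measure only the spread between these 2 arrays. Whether this spread includes variation among vector cultures is not known, since the arrays may have shared vector RNA. When the spread was also estimated from the siSelT-5 arrays, 627 features passed (10.8%), 302 higher (5.21%) and 325 lower (5.60%). Of the named genes, 10.3% passed with this spread, called the pooled spread below, 4.65% higher and 5.68% lower. With either siSelT-1 array left out, 0 features passed in limma, while 479 and 609 had an unadjusted p under 0.05. On the ratios as deposited, without centring, 2408 passed, of which 1773 were higher and 635 lower, so 73.6% of calls were higher against 49.9% with centring. Among named genes 29.7% were then higher and 11.2% lower. Centring moved the median gene by 0.13 log2. For no gene that passed did the 2 arrays have opposite signs.

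**Figure D1:**
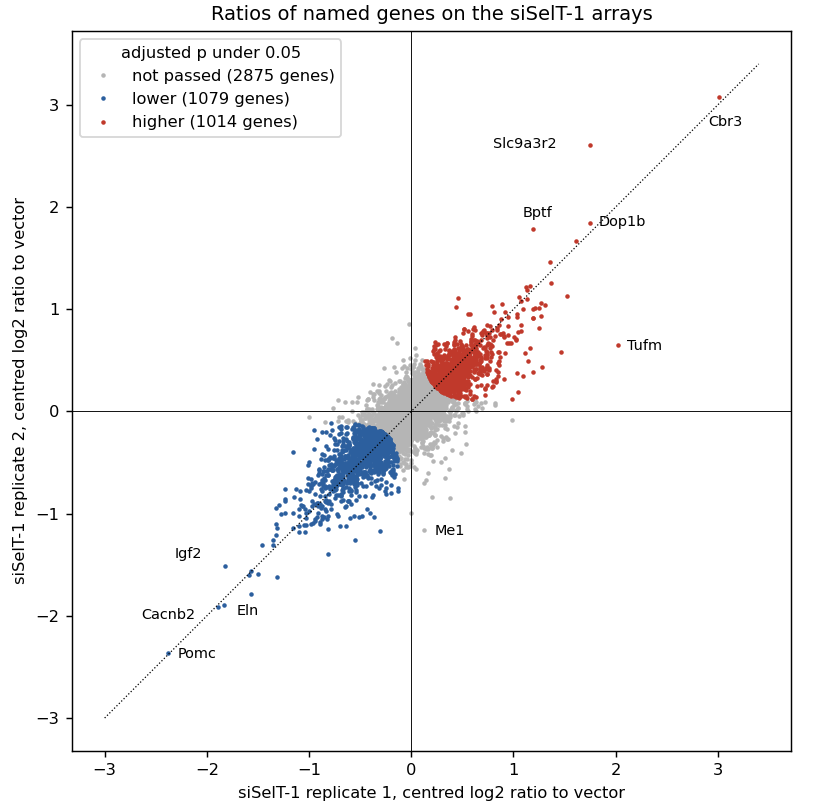
Centred log2 ratio of knockdown to vector on siSelT-1 replicate 1 (horizontal) against replicate 2 (vertical) for 4968 named genes, 1 point each; colours mark genes higher, lower or not passed at an adjusted p under 0.05, and the dotted line marks equal values. Cbr3 at 3.01 and 3.07 and Pomc at -2.38 and -2.36 lie at the ends of the line, while Tufm and Me1 lie far off it.

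The highest gene was Cbr3 (Entrez Gene 109857), a carbonyl reductase that uses NADPH to reduce aldehydes, ketones and quinones. Its ratios were 3.01 and 3.07, a mean of 3.04 ± 0.05 (SD, n = 2) or 8.22-fold, with an adjusted p of 1.21e-05. The next named gene by mean was Slc9a3r2, which encodes a PDZ scaffold that anchors a sodium-proton exchanger, at 1.75 and 2.61. Dop1b, a gene of the DOPEY family with a role in membrane trafficking, had 1.75 and 1.85. Speer4b, of a multicopy family of spermatogenesis-associated genes, had 1.61 and 1.66, and its probe may also read near-identical copies. All these genes passed, each on 1 probe with values on both arrays. A further Dop1b probe had 1.35 on replicate 1 alone, and further Slc9a3r2 probes had values on siSelT-5 arrays only.

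Further down the highest 15 were genes of nuclear function. Bptf, a subunit of the NURF chromatin remodeller, had 1.19 and 1.78 on the 1 probe used, but another Bptf probe had a value on replicate 2 alone, at -1.05, so the Bptf probes disagree. Ets2, a transcription factor, had 1.36 and 1.46, and Hmgn1, a nucleosome-binding protein, had 1.13 and 1.19. Rpph1, the RNA component of RNase P, had 1.52 and 1.13. The replicates were close for Ets2 and Hmgn1 and wider apart for Rpph1.

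Among the others, Rapgef6, an exchange factor for Rap GTPases, had 1.37 and 1.26, and its other probes had values on siSelT-5 arrays only. Cyp7a1, the rate-limiting enzyme of bile acid synthesis, had 1.31 and 1.04, and the motor protein gene Kif17 had 1.25 and 1.01, with a further probe that had values on siSelT-5 arrays only. Wfdc21, which encodes a whey acidic protein domain, had 1.16 and 1.22. Psmg1, a chaperone of proteasome assembly, had 1.13 and 1.22. Pigt, a subunit of the GPI transamidase of the ER, was the only gene among the 15 with more than 1 probe averaged, and its 4 probes ranged from 0.40 to 1.75 over both arrays, all above 0. Tufm, the mitochondrial elongation factor, reached 2.03 on replicate 1 and 0.65 on replicate 2. With this gap of the replicates its adjusted p was 0.00796, and 0.0564 with the pooled spread, so that call was lost.

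At the low end, Pomc (Entrez Gene 18976), which encodes the precursor of ACTH and the melanocortins, had -2.38 and -2.36, a mean of -2.37 ± 0.02 (SD, n = 2) or 5.18-fold lower. Cacnb2, a beta subunit of voltage-gated calcium channels, had -1.89 and -1.92. Eln, which encodes elastin, had -1.83 and -1.89. These genes had nearly equal values on the 2 arrays. Igf2 (Entrez Gene 16002), a fetal growth factor, had -1.82 and -1.51, a mean of -1.66 ± 0.22 (SD, n = 2).

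Among the other 11 of the 15 lowest, the means ran from -1.68 for B230206H07Rik to -1.21 for Nupr1. Ewsr1, an RNA-binding protein gene, had -1.59 and -1.60, and Ttyh1, of a family of anion channels, had -1.57 and -1.56. Sertad4 had -1.50 and -1.59. Rarres2, which encodes the adipokine chemerin, had -1.32 and -1.62. Ppp1r37, a regulatory subunit of protein phosphatase 1, had -1.46 and -1.31. Hif1a, the oxygen-regulated transcription factor, had -1.36 and -1.31. Capza1, which caps actin filaments, had -1.35 and -1.26. Rtca, an RNA cyclase, had -1.32 and -1.21, and Thbs1, a matricellular adhesion protein, had -1.31 and -1.14.

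**Figure D2:**
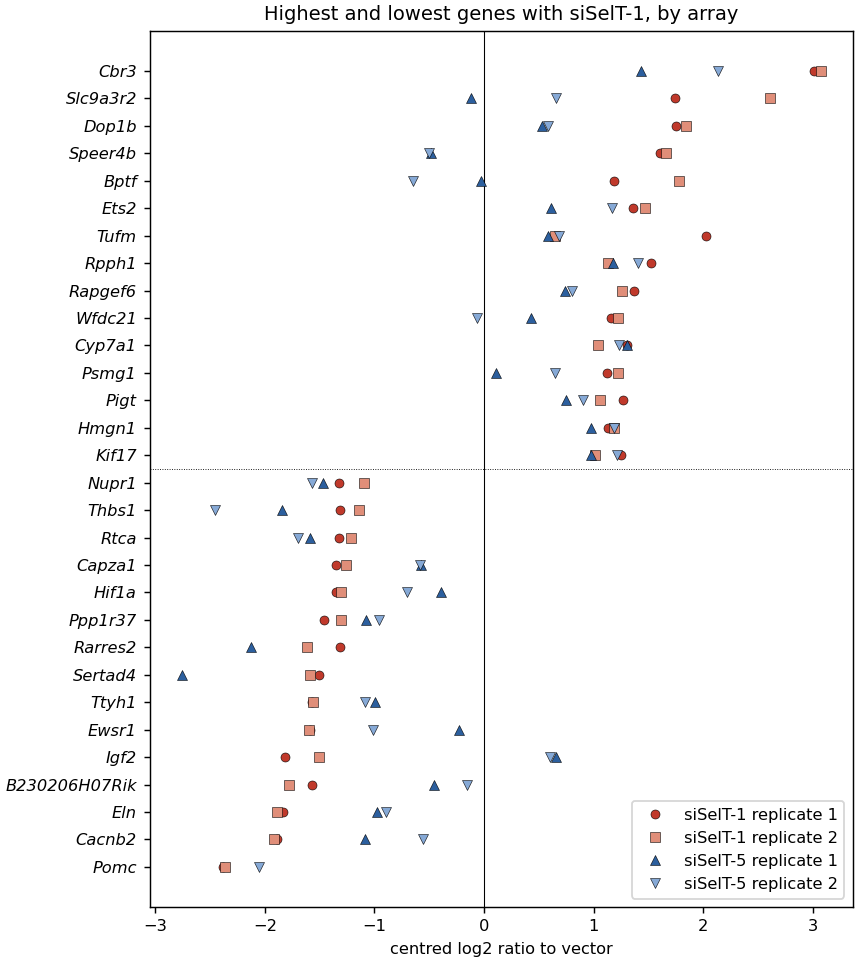
Centred log2 ratio to vector of the 15 highest and 15 lowest named genes with siSelT-1, with 1 point for each array of siSelT-1 (red) and siSelT-5 (blue). The siSelT-1 points lie on 1 side of 0 in each gene. The siSelT-5 points of Igf2 at 0.66 and 0.60, of Speer4b at -0.48 and -0.50 and of Bptf at -0.03 and -0.65 lie on the other side. Here 0 is the median probe and not vector, and centring subtracted 0.41 and 0.36 from the siSelT-5 arrays. Slc9a3r2 and Wfdc21 have 1 siSelT-5 point on each side of 0, and Pomc, Sertad4 and Rarres2 have 1 siSelT-5 value each.

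Probes of the same gene did not track each other closely. For the 815 genes with 2 probes, the Pearson correlation between the probes was 0.345, the median gap was 0.265 log2 and 62.6% of pairs had the same sign. Of the 63 named genes past 2-fold, 3 had more than 1 probe, against 1037 of all 4968 named genes. A gene read by 1 probe therefore has no second reading, and this applies to most genes named above.

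The relatives of the targeted gene came first among the gene groups. Of 24 selenoprotein genes, 15 were measured, 6 of them higher and 1 lower, with a median of 0.14. Selenow, which encodes selenoprotein W of the same redox family, was the highest at 1.08 and 0.79, a mean of 0.93 ± 0.21 (SD, n = 2; adjusted p = 0.000919). Selenoh, another relative in that family, had 0.34 and 0.23. Both genes passed, and Selenow was the higher one on each array.

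The selenoproteins of the ER had higher members and members that did not pass. Dio2, the deiodinase that activates thyroid hormone, had 0.84 and 0.81. Selenom had 0.79 and 0.56 and Selenok had 0.55 and 0.55, both of them higher. Selenof, a partner of the glycoprotein folding sensor, had -0.27 and -0.18, Selenos, of the degradation machinery, had -0.47 and -0.13, and Selenon had -0.03 and -0.23, none of which passed.

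The selenoprotein that fell was Selenop, the secreted plasma selenium carrier, at -0.79 and -0.76, a mean of -0.78 ± 0.02 (SD, n = 2; adjusted p = 0.000918). Selenow and Selenop were the highest and the lowest member. Gpx4, the glutathione peroxidase that reduces lipid peroxides, was higher at 0.28 and 0.38. Gpx1 had -0.16 and -0.21 and the thioredoxin reductases Txnrd1 and Txnrd3 had means of 0.04 and 0.23, none of which passed. Selenoo had 0.05 and 0.14. The 2 probes of Msrb1, a methionine sulfoxide reductase, had opposite signs, at 0.61 and 0.41 for one and -0.11 and -0.35 for the other.

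With the pooled spread, Selenow, Dio2, Selenok and Selenop passed, while Selenom (adjusted p = 0.124), Gpx4 (0.13) and Selenoh (0.284) did not. Of the 11 genes of selenocysteine insertion, 4 were measured. Celf1, an RNA-binding protein, was lower at -0.61 and -0.59, and Trnau1ap, which binds the selenocysteine tRNA, had -0.29 and -0.14 and did not pass.

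Genes of glutathione conjugation were higher. Of 11 measured glutathione S-transferases, the enzymes that couple glutathione to reactive compounds, 8 were higher and 0 lower, with a median of 0.40. Mgst1, a membrane-bound form, had 1.01 and 0.73. Gstm1 had 0.86 and 0.58, Gstp1 had 0.59 and 0.52, Gsta4 had 0.47 and 0.60 and Gstm2 had 0.46 and 0.54. As averages of their probes, the 5 genes were above 0.4 on both arrays. The Gstm1 value averages 2 probes that disagree, 1 with 1.15 and 1.17 and the other with 0.57 and -0.01. Gstm6 and Gstm5, at means of -0.23 and -0.21, were the members below 0, and neither passed. The pooled spread left 3 members higher, Gstp1, Gsta4 and Gstm2, and 0 lower. Mgst1 (adjusted p = 0.0939) and Gstm1 (0.0788) did not pass with it. Gstm genes are close paralogs, so their probes may share signal.

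Among 19 measured genes known as targets or parts of the NRF2 pathway, which induces detoxifying enzymes under oxidative or electrophilic stress, 8 were higher and 3 lower, with a median of 0.04. Beside Cbr3, Hmox1, which degrades heme, had 1.05 and 1.12. Aldh3a1, an aldehyde dehydrogenase, had 0.81 and 0.98. Gclm, the modifier subunit of the enzyme that starts glutathione synthesis, had 0.59 and 0.74. These genes were higher on both arrays and passed with the pooled spread too. Other widely used markers of the pathway stayed near the median: Nqo1 had a mean of -0.06, Srxn1 of -0.04 and Txnrd1 of 0.04, none of which passed. Nfe2l2, which encodes NRF2 itself, was lower at a mean of -0.41, and Abcc1, a glutathione conjugate exporter, at -0.68 and -0.69. Without centring the list had 8 higher and 1 lower member.

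The promoters of the highest gene of the comparison and of a higher gene from each of these groups are shown because NRF2 acts through the antioxidant response element. They are RefSeq windows of build GRCm38.p6, from 250 bases before the start to 50 after it, on the + strand, 5′ to 3′, and capitals mark a match to its core, TGACNNNGC, on either strand. Cbr3 is the highest gene (chr16:93682969-93683268, 0 matches), Gclm stands for glutathione synthesis (chr3:122245307-122245606, 1 match) and Mgst1 for glutathione conjugation (chr6:138140277-138140576, 1 match here and 0 in the other promoter listed for the gene).
Cbr3: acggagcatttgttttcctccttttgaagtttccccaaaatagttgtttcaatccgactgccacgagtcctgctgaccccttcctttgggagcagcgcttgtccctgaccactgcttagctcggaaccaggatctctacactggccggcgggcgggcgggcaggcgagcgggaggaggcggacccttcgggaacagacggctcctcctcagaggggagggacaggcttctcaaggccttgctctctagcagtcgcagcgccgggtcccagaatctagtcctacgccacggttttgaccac
Gclm: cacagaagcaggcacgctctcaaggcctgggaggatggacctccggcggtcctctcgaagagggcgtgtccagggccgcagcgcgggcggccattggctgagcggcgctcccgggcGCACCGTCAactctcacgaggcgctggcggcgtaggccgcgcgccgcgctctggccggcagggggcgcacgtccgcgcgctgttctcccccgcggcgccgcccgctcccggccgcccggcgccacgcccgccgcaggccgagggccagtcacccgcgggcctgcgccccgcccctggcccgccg
Mgst1: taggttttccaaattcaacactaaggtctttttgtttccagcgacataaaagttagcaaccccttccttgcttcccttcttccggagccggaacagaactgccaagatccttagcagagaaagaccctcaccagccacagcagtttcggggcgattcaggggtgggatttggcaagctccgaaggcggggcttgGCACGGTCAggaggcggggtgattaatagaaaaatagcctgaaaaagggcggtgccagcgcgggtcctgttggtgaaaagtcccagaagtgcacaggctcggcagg
The core was present in 4071 of the 32851 promoters of that length (12.4%). Of the higher glutathione S-transferases with a listed promoter, 1 of 7 held it, the Mgst1 shown here. Of the higher NRF2 pathway genes 2 of 6 did, Gclm, also shown, and Pgd. The Gclm and Mgst1 promoters shown are thus not typical of their groups. The core was also in the promoter of the lower gene Nfe2l2 and in those of Me1, Srxn1 and Txnrd1, which did not pass. A match is a description of letters in these windows, and its absence says only that they are not there.

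Of 18 measured peroxiredoxin, thioredoxin and superoxide dismutase genes, 8 were higher and 2 lower, with a median of 0.22. Sod1, the cytosolic dismutase, had 0.95 and 0.92. Txndc9 had 1.04 and 0.78, and the mitochondrial thioredoxin Txn2 had 0.74 and 0.77. Prdx4, the peroxiredoxin of the ER, had 0.53 and 0.59. These genes passed, while the cytosolic thioredoxin-like Txndc17 was lower at -0.97 and -0.93. The counts were 4 higher and 0 lower on the pooled spread.

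Genes of the folding machinery of the ER had small ratios. Of 27 measured chaperones and disulfide isomerases, 9 were higher and 2 lower, with a median of 0.06, and the highest mean was 0.50. Ppib, a cyclophilin that acts on collagen, had 0.61 and 0.40. Pdia4 had 0.42 and 0.50 and P4hb, protein disulfide isomerase itself, had 0.30 and 0.46. The chaperone BiP gene, Hspa5, was higher at a mean of 0.34, whereas Hsp90b1 had -0.07 and Canx -0.12, which did not pass. Dnajc10, an ER disulfide reductase, was lower at -0.37 and -0.49, a call lost without centring (adjusted p = 0.0519). Its value averages 2 probes of unlike size, 1 with -0.67 and -0.83 and the other with -0.059 and -0.155. Under the pooled spread 2 members were higher and 0 lower, and without centring 11 and 0.

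Of 17 genes of ER stress and the ATF4 response, 2 were higher and 3 lower. With the pooled spread 0 were higher and 2 lower, and without centring 3 and 3. Nupr1, a stress-induced chromatin protein, had -1.33 and -1.10, and the degradation factors Edem1 and Derl2 had means of -0.46 and -0.49. Derl2 did not pass with the pooled spread (adjusted p = 0.082). Ddit3, which encodes CHOP, had a mean of 0.08, Atf4 of 0.11 and Trib3 of -0.02, and none passed. Of 7 measured subunits of the oligosaccharyltransferase, the ER complex that attaches N-glycans, 3 were higher and 0 lower. These were Krtcap2 at 0.64 and 0.42, Rpn2 at 0.25 and 0.28 and Stt3b at 0.34 and 0.21, and Krtcap2 was the only one to pass with the pooled spread.

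Calcium handling genes moved in both directions, with 9 higher and 8 lower of 24 and a median of 0.15. Below Cacnb2, the calmodulin gene Calm2 had -0.58 and -0.55 and the plasma membrane pump Atp2b1 had -0.45 and -0.59. Camk2b, a calmodulin-dependent kinase subunit, had 0.98 and 0.67, and Orai1, the pore of store-operated calcium entry, had 0.51 and 0.57. The Camk2b value averages 2 probes, 1 with 0.75 and 0.06 and the other with 1.21 and 1.29. On the pooled spread 1 calcium handling gene was higher and 3 lower, and without centring 11 and 4. Atp2b1 (adjusted p = 0.0758) and Orai1 (0.193) did not pass with the pooled spread.

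Immediate early and serum response genes, which growth factors switch on within a short time, were lower. Of 19 measured, 12 were lower and 2 higher, with a median of -0.46. Egr1, a zinc finger factor, had -1.15 and -0.99. Ccn2, a matricellular growth factor, had -0.84 and -0.87, Btg2, an antiproliferative gene, had -0.75 and -0.85, and Ier5 had -1.03 and -0.77. The Krüppel-like genes Klf2, Klf4, Klf6 and Klf10 and the MAP kinase phosphatases Dusp1 and Dusp6 were also lower, with means of -0.46 to -0.77. Phlda1, at 0.88 and 0.76, and Fosl2, at a mean of 0.57, were the members that rose. The pooled spread left 7 lower and 2 higher, and the uncentred ratios 10 and 2. Ccn2 (adjusted p = 0.0916) and Ier5 (0.0977) did not pass with the pooled spread.

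Matrix glycoproteins split by member. Of 31 measured matricellular and elastic matrix genes, 12 were lower and 6 higher, with a median of -0.08 that became 0.05 without centring, where 9 were lower and 9 higher. Beyond Eln and Thbs1, Srpx2 had -1.28 and -1.0. Dcn, the collagen-binding proteoglycan decorin, had -1.06 and -0.92. Postn, or periostin, had -0.93 and -0.90, with both of its probes below -0.75. Sparc had a mean of -0.66 and fibronectin, Fn1, of -0.40. The higher genes were Nid1 at a mean of 0.71, Ltbp1 at 0.59, Fmod at 0.51, Thbs3 at 0.34, Emilin1 at 0.32 and Efemp1 at 0.24. The pooled spread left 7 lower and 1 higher.

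Collagens and their processing enzymes had 6 higher and 6 lower genes of 25, and 10 higher and 3 lower without centring. The fibrillar collagen genes Col5a2, at -1.08 and -0.91, and Col3a1, at -0.98 and -0.73, were the lowest, and they were the 2 that passed with the pooled spread. Col6a2 was higher at 0.25 and 0.50. Of 17 matrix proteases and inhibitors, 7 were higher and 1 lower, with a median of 0.21. Mmp14, a membrane metalloprotease, had 0.51 and 0.36, and Adamts1 had 0.46 and 0.50. The inhibitor Timp3 was the lower one, at -0.60 and -0.61. Adamts1 and Timp3 passed with the pooled spread.

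Integrin, focal adhesion and actin genes had 16 lower and 9 higher members of 52, with a median of -0.10 that became 0.04 without centring, where 10 were lower and 13 higher. Rdx, which links actin to the membrane, had -0.74 and -0.77. The actin genes Actg1, at -0.69 and -0.61, and Acta2, at -0.58 and -0.54, were lower, as were Capza2 at -0.69 and -0.82 and Arpc5 at -0.78 and -0.51. On the pooled spread 5 were lower and 1 higher. Actin genes are close in sequence, and their probes may share signal.

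At the cell surface, 6 of 21 junction and adhesion genes were higher and 4 lower. Jup, or plakoglobin, had 1.19 and 1.0, and Vcam1, the leukocyte adhesion molecule, had -1.24 and -0.87. The hyaluronan receptor Cd44 had -0.44 and -0.45, and of these genes Jup and Vcam1 passed with the pooled spread. Without centring 8 genes of the list were higher and 2 lower. Of 8 annexins, Anxa1 was lower at -0.47 and -0.46 and Anxa4, at 0.41 and 0.50, and Anxa2, at 0.29 and 0.44, were higher, but 0 annexins passed with the pooled spread.

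The growth factor axes had members in both directions. Of 10 genes of the insulin-like growth factor axis, 2 were higher and 3 lower, which became 5 higher and 1 lower without centring. Against the fall of Igf2, Igf1 rose, at 0.92 and 0.97, as did the binding protein gene Igfbp4, at 0.34 and 0.46. The receptor Igf1r had -0.42 and -0.21 and its substrate Irs1 had -0.54 and -0.26, both lower. These receptor and substrate calls were lost without centring (adjusted p = 0.161 and 0.0646) and with the pooled spread (0.172 and 0.0812). Igf2 and Igf1 passed with the pooled spread. Of 22 TGF-beta and BMP signalling genes, 5 were higher and 3 lower, with a median of -0.05 that became 0.08 without centring, where 8 were higher and 1 lower. The receptor Bmpr1a had -0.57 and -0.54, and Id3, a target of BMP signals, had 0.63 and 0.46.

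**Figure D3:**
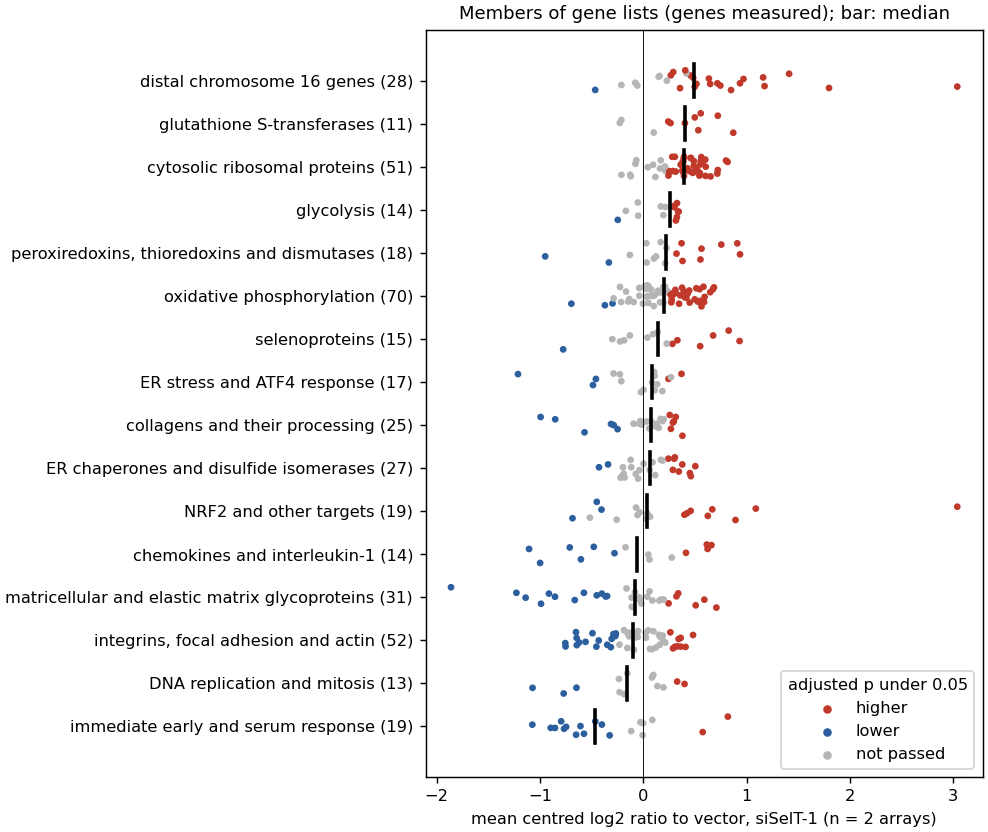
Mean centred log2 ratio to vector over the 2 siSelT-1 arrays for the members of 16 gene lists, 1 point per gene, coloured by whether it passed; the black bar is the median and the number in brackets counts measured genes. The median of the distal chromosome 16 genes lies at 0.49 and that of the immediate early genes at -0.46.

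Genes of protein synthesis were higher at the ribosome and mixed elsewhere. Of 51 measured cytosolic ribosomal protein genes, 39 were higher and 0 lower, with a median of 0.40. Rps2 had 0.84 and 0.80, Rps7 had 0.77 and 0.83 and Rpl28 had 0.69 and 0.75. The median was 0.47 on replicate 1 and 0.35 on replicate 2, so the shift was present on each array. The lowest, Rps15a, had a mean of -0.21 and did not pass. The pooled spread left 17 higher and 0 lower. Ribosomal protein genes have many processed pseudogenes, whose transcripts a probe could also bind.

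Translation factors did not share that direction, with 8 higher and 10 lower of 48. Eif4g2 had -0.71 and -0.62 and Eif5b had -0.77 and -0.57, whereas the initiation factor subunits Eif3d, at 0.59 and 0.71, and Eif3f, at 0.51 and 0.58, and the elongation factor Eef1d, at 0.57 and 0.54, were higher. The Eif4g2 value averages 2 probes, 1 with -0.37 and -0.40 and the other with -1.05 and -0.84. Of the 3 Eif5b probes, 1 had -0.02 and -0.18, and the others were at -0.74 or lower. Without centring the split of the translation factors was 15 higher and 2 lower. Of 58 mitochondrial ribosomal protein genes, 16 were higher and 5 lower, with Mrpl33 at 0.57 and 0.44 as an example, and with the pooled spread 0 passed in either direction.

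Genes of energy metabolism were higher in part. Of 70 oxidative phosphorylation genes, 31 were higher and 3 lower, with a median of 0.20, and 9 and 1 with the pooled spread. Subunits of the ATP synthase and cytochrome oxidase led, among them Atp5h at 0.78 and 0.58, Atp5o at 0.74 and 0.56 and Cox7c at 0.57 and 0.56. The lower genes were Ndufs1 at -0.75 and -0.65, Sdha at a mean of -0.37 and Cox7b at a mean of -0.30. Of 14 glycolysis genes, 7 were higher and 1 lower, all with small changes, such as Ldha at 0.35 and 0.33 and Aldoa at 0.33 and 0.33, and 0 passed with the pooled spread.

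Of 29 proteasome subunits, 7 were higher and 3 lower. Psmd11 was the lowest at -1.09 and -0.86, and Psmb1 was the highest at 0.42 and 0.51. Of 27 cytosolic heat shock and DnaJ chaperones, 6 were higher and 2 lower. Cct8, a subunit of the chaperonin that folds actin and tubulin, had 0.61 and 0.83, and Hsp90aa1 had -0.61 and -0.49. Each of these lists had 1 higher and 1 lower member with the pooled spread. Without centring the proteasome list had 12 higher and 1 lower member.

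Few cell cycle genes were measured. Of 58 replication and mitosis genes, 13 had values on both arrays, with 2 higher and 3 lower. Mcm2, a subunit of the replicative helicase, had -1.03 and -1.11, Rrm1, of ribonucleotide reductase, had -0.68 and -0.61, and Cdc20, an activator of mitotic exit, had -0.51 and -1.03. The cyclins Ccne1, at 0.33 and 0.47, and Ccnd3, at 0.33 and 0.33, were higher. With the pooled spread Mcm2 and Cdc20 passed.

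Of 25 histone genes, 9 were higher and 3 lower, with H2bc15 at 0.65 and 0.56, but these genes are close copies of each other. Without centring 13 were higher and 2 lower. Of 23 p53 and growth arrest genes, 6 were higher and 6 lower, and without centring 7 and 4. Trp53inp1 had -1.07 and -0.93, whereas Cdkn1a, the cyclin kinase inhibitor p21, had 0.43 and 0.57 and Tnfrsf10b, a death receptor, had 0.77 and 0.73. The Tnfrsf10b value averages 2 probes that disagree, at 1.66 and 1.25 for one and -0.13 and 0.21 for the other. The higher p53 genes did not pass with the pooled spread.

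Among 14 chemokine and interleukin genes, 4 were higher and 6 lower, with a median of -0.06 that became 0.07 without centring, where 5 were higher and 5 lower. Il1r1, the interleukin-1 receptor, had -1.04 and -1.18, and Ccl2, a monocyte chemokine, had -0.90 and -1.10. Ccl9, at 0.62 and 0.70, and Cxcl5, at 0.59 and 0.66, were higher. These genes passed with the pooled spread too, where the list had 3 in each direction.

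Of 30 interferon and histocompatibility genes, a list that also holds some class II genes and H2-Ke6 by name, 6 were higher and 2 lower, and without centring 11 and 2. The lower ones were H2-K1, a class I heavy chain, at -0.84 and -0.95 and Isg15 at -0.72 and -0.82. H2-DMb1, of the class II peptide loading complex, had 0.77 and 0.50 and Ifitm3 had 0.71 and 0.39. Of 10 cholesterol and lipid synthesis genes, whose median of -0.04 became 0.10 without centring, the desaturases Scd1, at 0.51 and 0.60, and Scd2, at 0.57 and 0.49, were higher, and Fdps, at -0.55 and -0.47, Srebf1, at -0.53 and -0.35, and Hmgcs1, at -0.27 and -0.60, were lower, and the desaturases alone passed with the pooled spread. The Hmgcs1 call was also lost without centring (adjusted p = 0.0808).

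Several of the highest genes were neighbours on a chromosome. Of the 26 named genes past 2-fold higher, 5 lay on chromosome 16, and all of them, Cbr3, Dop1b, Ets2, Psmg1 and Hmgn1, were among the last 12 measured genes of its distal end. In the order of the annotation, these 12 began with Cbr3 and Dop1b, followed by Morc3 with a mean of 0.23, Pigp with 0.97, Ttc3 with 0.51, Vps26c with 0.64 and Dyrk1a with 0.15. Then came Ets2, Psmg1 and Hmgn1, Get1 with 0.85, and Prdm15 with -0.47. Of these, Morc3 and Dyrk1a did not pass and Prdm15 was lower.

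A list of distal chromosome 16 genes, which was drawn up with earlier results of these data known, had 20 higher and 1 lower of 28 measured genes and a median of 0.49. It included Sod1, Atp5o and Cct8, which also count in the groups above, App, the amyloid precursor gene, at a mean of 0.46, and Tiam1, at 0.75. With the pooled spread 13 were higher and 0 lower. Over the whole chromosome, 38 of 180 genes (21.1%) were higher and 41 (22.8%) lower, with a median of 0.03, close to the shares of all genes placed on chromosomes. The siSelT-5 arrays, also set against pU6-m3 RNA, had a median of 0.18 over the list. Cbr3 had 1.43 and 2.14 there, Dop1b 0.53 and 0.59, Psmg1 0.11 and 0.65 and Hmgn1 0.97 and 1.18. On these centred values Cbr3, Dop1b and Psmg1 were thus higher on each siSelT-1 array than on either siSelT-5 array, and Hmgn1 overlapped. None of the 4 differences passed, with adjusted p of 0.103, 0.0817, 0.129 and 0.753. On simulated data with 200 moved features, the fit of the difference found 0.05% of those moved by 1 log2. Not passing therefore does not show that the constructs agree.

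**Figure D4:**
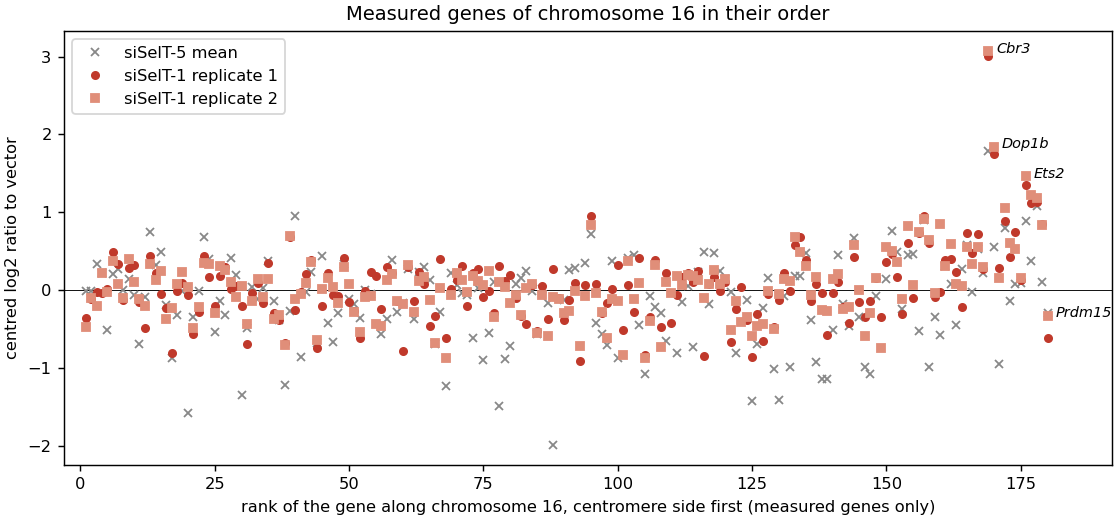
Centred log2 ratio to vector of 180 measured genes of mouse chromosome 16, in their order from the centromere side (horizontal), for both siSelT-1 arrays and for the mean of the siSelT-5 arrays. Points at the right end rise to 3.04 at Cbr3, while the median of the chromosome is 0.03.

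Other chromosomes also differed in their shares. On chromosome 1, 12.8% of 257 genes were higher and 35.8% lower, with a median of -0.17, and on chromosome 17 the shares were 31.8% and 12% of 267 genes, with a median of 0.11. These are descriptions without a test, and chromosomes 1 and 17 were singled out after the values were seen.

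Markers of fibroblasts and of other cell types were read as ratios only, since the table gives no level by which the identity of the cells could be checked. Of 10 measured fibroblast markers, 5 were lower and 2 higher, and without centring 4 and 3. Dcn, Postn and Col3a1 were lower, as given above, and so was Pdgfrb at -0.42 and -0.41, while Pdgfra rose, at 0.55 and 0.55. Of 9 endothelial markers 4 were measured, and all 4 were higher: Pecam1 at 0.92 and 0.57, Tie1 at 0.56 and 0.79, Cd34 at 0.32 and 0.32 and Ramp2 at 0.38 and 0.16. The adipocyte markers Scd1 and Lpl were higher and the macrophage markers Lyz1 and Lyz2 lower, with means of -0.43 and -0.30. Among the bone and cartilage markers Bglap was higher at 0.65 and 0.58 and Mgp lower at -0.48 and -0.40. Syp, a neuronal marker, was higher at 0.41 and 0.22, Des, a muscle marker, had 0.16 and -0.12, and 0 of 8 epithelial markers were measured. Of the markers in this paragraph, Dcn, Postn, Col3a1, Pecam1, Scd1, Lpl and Bglap passed with the pooled spread, and the others did not. Lyz2 also did not pass without centring (adjusted p = 0.186). Fewer cells of a type and less RNA per cell cannot be told apart in bulk RNA, and the part of these markers in the gene groups was not tested.

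The 2 constructs were then compared directly, which asks where the effect of siSelT-1 was not that of siSelT-5. A dye effect and a vector RNA common to the arrays cancel in this difference. On simulated data, where 200 of 5541 features moved, the fit found 0% of those moved by 0.5 log2 and 0.05% of those moved by 1. The share found depends on how many features move, so it need not hold for these data. A gene that did not pass may therefore still differ. Of 5541 features with values on all 4 arrays, 2 passed in limma (0.0361%), 1 higher (0.0180%) and 1 lower (0.0180%), while 1408 had an unadjusted p under 0.05. Speer4b was higher with siSelT-1, at 1.61 and 1.66 against -0.48 and -0.50, a difference of 2.13 ± 0.14 (SE; adjusted p = 0.0433). Postn was lower with siSelT-1, at -0.93 and -0.90 against 1.32 and 1.19, a difference of -2.17 ± 0.14 (SE; adjusted p = 0.0433). In both genes the constructs lay on opposite sides of the median probe, which is not the level of vector, and the arrays of a construct nearly coincided. Without centring Speer4b did not pass (adjusted p = 0.0535), and with every probe tested on its own neither it (0.052) nor both Postn probes passed. Leaving out either siSelT-1 array left 0 features, and leaving out siSelT-5 replicate 1 or 2 gave 1865 and 1212.

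The other genes of smallest unadjusted p in each direction did not pass, and they are not those of largest difference. Igf2 had -1.82 and -1.51 with siSelT-1 and 0.66 and 0.60 with siSelT-5, a difference of -2.29 ± 0.17 (SE; adjusted p = 0.0523), and it passed without centring (adjusted p = 0.0265). The other lower differences chosen by p were -1.69 for A630052E07Rik, -1.54 for Tmem242, -1.41 for Stmn1, -1.38 for Rrp1, -1.14 for Mcm4 and -1.12 for Osr1. For the last 4 genes the siSelT-1 values lay between -0.43 and 0.01, and the siSelT-5 values between 0.93 and 1.35. A further Mcm4 probe had values on siSelT-5 arrays only, at -1.07 and -0.38, against 0.96 and 0.96 for the probe used. On the higher side, the genes chosen by p were Gm2a, the activator of ganglioside breakdown, with a difference of 1.75, the homeobox gene Six5 with 1.72, the chloride channel gene Clcn2 with 1.69, Bcl7a with 1.51, Ralgds with 1.39, Dop1b with 1.24 and Myef2 with 1.24. The Ralgds probe used had -1.41 and -1.63 on the siSelT-5 arrays. A further Ralgds probe had 0.25 and 0.48 there and -0.09 on siSelT-1 replicate 2, so the Ralgds probes disagree. Some genes outside this choice had larger differences but also did not pass. These included Slc9a3r2 with 1.91 (adjusted p = 0.103) and Bptf with 1.83 (adjusted p = 0.0926).

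**Figure D5:**
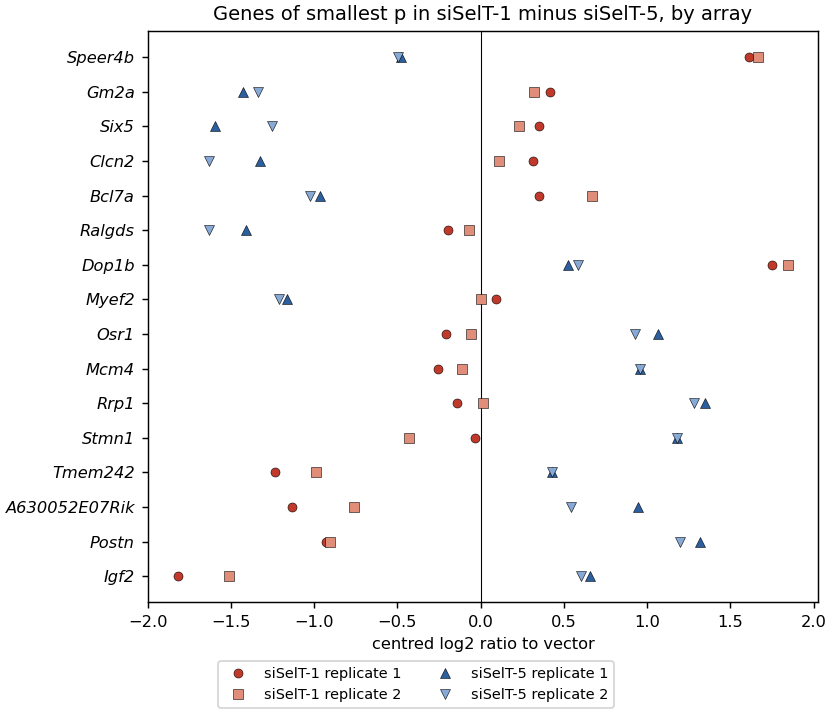
Centred log2 ratio to vector on each of the 4 arrays for the 8 higher and 8 lower genes of smallest unadjusted p in the siSelT-1 minus siSelT-5 comparison. Speer4b and Postn passed; the points of the 2 constructs do not overlap in any of the 16 genes, which were chosen for that difference.

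The medians of some groups on siSelT-1 and on siSelT-5, whose arrays may share vector RNA, are set side by side here. The cytosolic ribosomal proteins had 0.40 and 0.74, the glutathione S-transferases 0.40 and 0.62 and oxidative phosphorylation 0.20 and 0.52. The immediate early genes had -0.46 and -0.47. Other groups had medians on opposite sides of 0, with 0.21 and -0.11 for the matrix proteases, 0.08 and -0.11 for the collagens and 0.09 and -0.15 for the interferon list. The insulin-like growth factor axis had 0.13 and -0.06, TGF-beta and BMP signalling -0.05 and 0.08, DNA replication -0.16 and 0.22 and the NRF2 list 0.04 and -0.01. Centring subtracted 0.41 and 0.36 from the siSelT-5 arrays but 0.18 and 0.08 from the siSelT-1 arrays. The opposite sides of 0 therefore rest on the centring, except for DNA replication, whose uncentred siSelT-1 median was -0.02. The close medians of the immediate early genes rest on it too. The differences between these medians were not tested. Selenow had 0.99 and 0.82 with siSelT-5, and Selenop had -0.53 and -0.67. Mgst1 had -1.03 and 0.09 with siSelT-5, against 1.01 and 0.73 with siSelT-1. The differences between constructs for these genes did not pass, which does not show that the constructs agree.

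The 5 genes with the widest gap between the siSelT-1 replicates were Tufm, described above, Me1, Fchsd1, Scnm1 and Pxylp1. Me1, the malic enzyme, had 0.12 and -1.16, Fchsd1 had 0.38 and -0.85, Scnm1, a splicing factor, had 0.98 and -0.08 and Pxylp1 had 0.20 and -0.84. These 4 had opposite signs on the arrays and did not pass.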

How the data were processed

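RNA of 4 hybridisations of NIH 3T3 cells was read, 2 for siSelT-1 and 2 for siSelT-5. The deposited values are log ratios, here taken as log2; their base, direction, background correction, normalization and filter are not given in the sources used here. Of the 22534 probes in the table, 18129 had 1 gene name, 4265 had none and 140 had several. Entrez identifiers matched 18041 probes to the GRCm38.p6 annotation, which changed 0 symbols. The siSelT-1 arrays had 7689 and 9232 values, and 2113 probes had a value on 1 of them alone. The number of arrays limits the precision.

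Arrays were centred on the median of the 7404 probes with both siSelT-1 values (for siSelT-1 minus siSelT-5, of the 7038 probes with all 4). Probes of a single gene name were averaged. The lmFit and eBayes functions of limma 3.58.1 (R 4.3.3) fitted the siSelT-1 mean with 1 residual degree of freedom and a prior of 6.09, and the difference as 2 group means. The two-sided threshold was a Benjamini-Hochberg adjusted p of 0.05. Each of 20 simulated data sets had 200 moved features, and these shares need not hold where more features move. The first fit found 78.0% of features moved by 0.5 log2 and 99.8% of those moved by 1. Of its calls 7.92% were false, above the share of 0.05 that the threshold sets. The fit of the difference found 0% and 0.05%.

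The text names the 15 genes with the highest and the 15 with the lowest mean among those that passed and kept 1 sign on both arrays, and every selenoprotein measured. It names up to 5 genes of a list by smallest unadjusted p, 8 each way for the difference (unfilled places by unadjusted p) and the 5 whose replicates lay farthest apart. Further list members were picked with their values in view. The members and the 32 lists were chosen with earlier results of these data known. Some lists share genes. Replicate numbers were checked for pairing (correlation of deviations 0.07 over 5541 features). Alternatives were centring, scaling, probes, filter, spread, replicate block, threshold and each array left out. Figures were drawn with matplotlib 3.10.9.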

Additional observations from a re-analysis of the deposited data

Results flagged for a closer look

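Speer4b and Postn differed between the constructs by a test of the difference itself. Speer4b was 2.13 log2 higher with siSelT-1 than with siSelT-5, and Postn was -2.17 log2 against siSelT-5. Groups of 2 arrays are too small for a test of single arrays that stand apart.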

How the results depend on the processing

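Of the alternatives to the siSelT-1 fit, those of centring other than none, scaling, single probes, named genes only, values on all 4 arrays, robust or common spread and the threshold of 0.1 left 2252 to 3089 features passing. Without centring 1773 were higher and 635 lower, against 1243 and 1249. The spread pooled with siSelT-5 left 627 (302 higher, 325 lower), a threshold of 0.01 left 1297 (621 and 676), and the replicate block left 484 (217 and 267). The deviations of same-numbered arrays of the 2 constructs had a correlation of 0.07. Whether these arrays shared vector RNA is not known, so whether the block stands for a pairing is not known either. With 1 siSelT-1 array left out, 0 features passed in limma (479 and 609 at an unadjusted p under 0.05), 0 of them at 2-fold, and the lone array was assumed to vary like the siSelT-5 arrays. All 30 extreme genes passed in the fit used, 29 with the pooled spread, 27 of the 27 with 4 values under the block and 0 with an array left out, at adjusted p of 0.13 to 0.507 without replicate 1 and 0.0976 to 0.286 without replicate 2. Of the list members 384 passed, 127 with the pooled spread, 96 with the block and 0 with an array left out. For the difference 2 features passed, 1 with single probes, 87 with the block and 0 to 1865 with an array left out. No named gene that passed changed sign under these alternatives.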
